A study of Drosophila melanogaster with 4 samples.

Results

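This account covers the ribosomal protein and translation factor genes of a fly head expression study. They were taken as every probe with 1 gene whose symbol begins as those of the cytosolic ribosome (RpL, RpS or RpLP), the mitochondrial ribosome (mRpL or mRpS), the initiation factors (eIF) or the elongation factors (eEF). The rule found 101 of the 6793 genes named on the array, with 122 of its 13824 probes: 36 probes for 23 genes of the cytosolic ribosome, 54 for 48 genes of the mitochondrial ribosome and 32 for 30 genes of factors. A probe is the mean of 2 adjacent duplicate spots of the same cDNA. The heads came from Oregon-R wild-type Drosophila melanogaster, unmated males 10 to 11 days old at the start. For 3 days their food either held vigabatrin (VGB), at a dose of 24 mg per ml, or was normal food (NF). Vigabatrin, used against epilepsy, inhibits GABA transaminase and so slows the breakdown of the transmitter GABA. Both diets shared the strain, the sex, the vials of 30 flies, and diethyl ether anaesthesia when the sexes were parted. Each of 4 two-colour arrays set RNA from a pool of VGB heads against RNA from a pool of NF heads. The VGB pool was labelled with Cy5 for replicates 1 and 2, and with Cy3 for replicates 3 and 4, the dye-swapped pair.

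The cytosolic ribosome makes nearly all proteins of a cell, and its protein genes are usually expressed together at high levels. Mitochondria have a ribosome of their own, whose proteins are encoded in the nucleus and whose products are subunits of the respiratory chain. Initiation factors bring messenger RNA, initiator transfer RNA and the small subunit together, and elongation factors carry the ribosome along the message.

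Each deposited value is a log ratio between the dyes. Its base is not stated, and log2 was assumed. No text states whether the ratio was turned on the dye-swapped arrays, so most results below are given in both possible readings. The main reading takes the values as Cy5 over Cy3, and replicates 3 and 4 are turned to give VGB over NF. The other reading takes all 4 columns as VGB over NF already. Apart from that change of reading, the alternatives in processing were run in the main reading alone, as was the check for outlying arrays. The array medians were 1.03, 1.03, 0.51 and 0.44 for replicates 1 to 4, and each array's median over all its probes was subtracted first. A centred ratio below is a deposited value after that step, with no array turned. For an array of replicates 3 or 4, a positive centred ratio means lower with VGB in the main reading and higher with VGB in the other.

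Many members had no value, because the authors kept only spots that passed their quality filters. Values were left for 2822, 1280, 1517 and 3231 probes of the array on replicates 1 to 4, and for 27, 21, 25 and 37 member probes. Of the 122 member probes, 52 (42.6%) had a value on at least 1 array, against 41.3% of the 7558 probes with 1 gene. On at least 3 arrays, the minimum for a test, 18 members (14.8%) had values, against 7.74% of probes with 1 gene. By class this was 8 of 36 probes of the cytosolic ribosome (22.2%), 4 of 54 of the mitochondrial ribosome (7.41%) and 6 of 32 of factors (18.8%). Cytosolic ribosome and factor probes were thus kept on 3 arrays more often than probes with 1 gene, and mitochondrial ribosome probes about as often. On at least 1 array the shares were 36.1% for the cytosolic ribosome, 37.0% for the mitochondrial ribosome and 59.4% for factors. There the cytosolic ribosome was below the 41.3% of probes with 1 gene. The 51 genes with no value on any array included RpL3, RpL32, RpS20, eIF2beta, eIF5B and mRpL12, and nothing is said of them. The files hold ratios without intensities, so no level can be given for any gene, and a missing value does not show that a gene was silent. The heads hold many cell types, and in such samples fewer cells of a type and less RNA per cell cannot be told apart. Of 14 photoreceptor and head markers, 7 were on the array and 6 had a value (Arr1, Pdh, inaC, inaD, trp and trpl), as had nSyb, a neuronal marker. Markers of other tissues also had values: the glial Gs2 and nrv2, 3 of 6 fat body markers on the array (Lsp2, apolpp and fit), the muscle markers Act88F and Mlc2, and the gut marker Jon65Aiii. Neither of the 2 male reproductive markers on the array had one. The part of these tissues in the results was not tested.

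**Figure D1:**
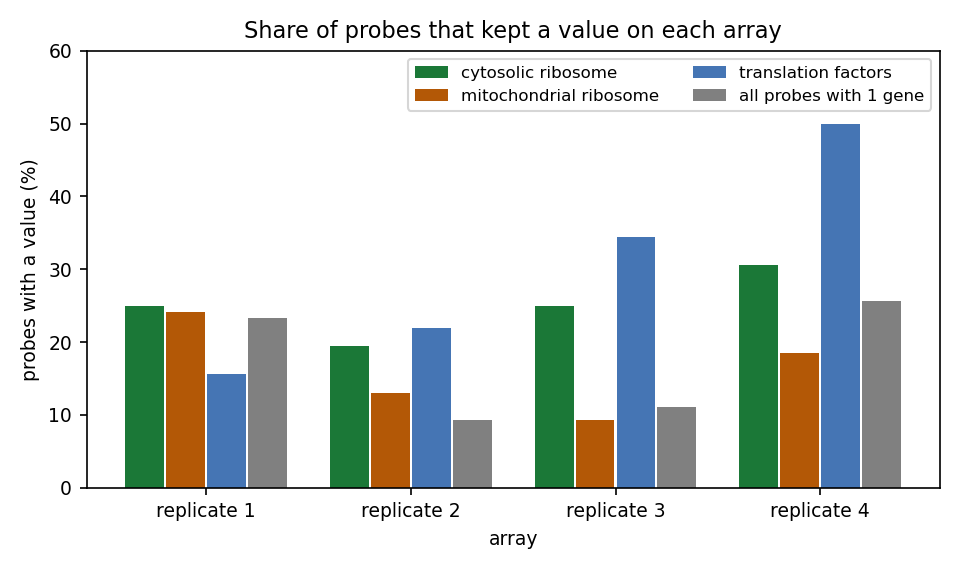
Bars give the percentage of probes with a value on each array for the 3 classes of members and for all probes with 1 gene. Factors reached 50.0% on replicate 4, against 25.7% of probes with 1 gene, and mitochondrial ribosome probes ran from 9.26% on replicate 3 to 24.1% on replicate 1.

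By its mean over the arrays, no member differed between VGB and NF past the threshold in either reading. A two-sided limma test of the mean against 0 was run, and its p-values were adjusted by Benjamini-Hochberg across the 1114 probes that had 3 or 4 values, with a threshold of 0.05. With replicates 3 and 4 turned, 0 of 18 member probes passed, against 4 of all 1114 (0.359%). At an unadjusted p under 0.05, 2 members were lower (11.1%) and 0 higher, against 7.27% and 1.17% of all probes. With no array turned, 0 of 18 passed, against 0 of 1114 (0.00%). At an unadjusted p under 0.05, 5 members were then higher (27.8%) and 0 lower, against 11.8% and 2.24% of all probes. The 5 were RpL15, RpL27, eEF1alpha2, eEF5 and mRpS24, and the 2 lower ones of the main reading were mRpS34 and RpL39.

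Among large-subunit proteins of the cytosolic ribosome, RpL27, RpL17 and RpL15 kept to 1 side of the array median. RpL27 had centred ratios of 0.37, 0.51, 0.74 and 0.72 on replicates 1 to 4. They stood at percentiles 87.2, 95.0, 97.0 and 96.8 among all probes of the arrays, high on every one. The 2 dye orders oppose each other in the main reading, where the mean was -0.14 ± 0.68 (SD, n = 4; limma adjusted p = 0.99). The other reading gave 0.58 ± 0.18 (SD, n = 4; limma adjusted p = 0.11), higher with VGB on 4 of 4 arrays. RpL17 had 0.10, 0.32, 0.27 and 0.30, again above the median on every array, with means of -0.03 in the main reading and 0.25 in the other. RpL15 had 0.31, 0.28 and 0.49 on replicates 1, 3 and 4, and its means were -0.15 and 0.36. The 3 genes thus lay above the array median wherever they were measured, and their arrays with VGB in Cy5 and with VGB in Cy3 did not differ in sign.

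RpL39 and RpLP0 behaved differently between the dye orders. RpL39, a very small protein that lines the exit tunnel of the ribosome, had -0.21 on replicate 1 and 0.43 and 0.50 on replicates 3 and 4. It was lower with VGB on 3 of 3 arrays, in the main reading, at -0.38 ± 0.15 (SD, n = 3; limma adjusted p = 0.55), which is 77.0% of the NF level. The mean of the other reading was 0.24 ± 0.39 (SD, n = 3; limma adjusted p = 0.54). RpLP0, the protein at the base of the ribosomal stalk, had 0.02 and -0.08 on replicates 1 and 2, and 0.43 and 0.52 on replicates 3 and 4. Its first 2 arrays were near the median and its other 2 well above it. The means were -0.25 ± 0.26 in the main reading and 0.22 ± 0.30 in the other (SD, n = 4; limma adjusted p = 0.83 and 0.50).

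Small-subunit proteins were represented by RpS7 and RpS15Ab. RpS7 had -0.27 on replicate 2 and 0.38 and 0.29 on replicates 3 and 4. It was lower with VGB on 3 of 3 arrays in the main reading, at -0.31 ± 0.06 (SD, n = 3; limma adjusted p = 0.74), or 80.5% of the NF level. Its SD was the smallest among the 18 members in that reading. The other reading gave it 0.13 ± 0.35 (SD, n = 3; limma adjusted p = 0.74). RpS15Ab had 2 probes on all 4 arrays, and they disagreed. Probe 1 had 0.10, 0.21, 0.33 and 0.35, above the median on every array, and probe 2 had -0.06, -0.17, -0.46 and 0.15, below it on 3 of 4. The probes were on opposite sides of the median on replicates 1, 2 and 3, and farthest apart on replicate 3. The gene mean over both probes was -0.04 ± 0.14 in the main reading (SD, n = 4; limma adjusted p = 0.997 at gene level). A spotted cDNA also binds transcripts of near-identical genes, such as RpS15Aa for RpS15Ab, so these ratios are uncertain as to the copy measured.

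**Figure D2:**
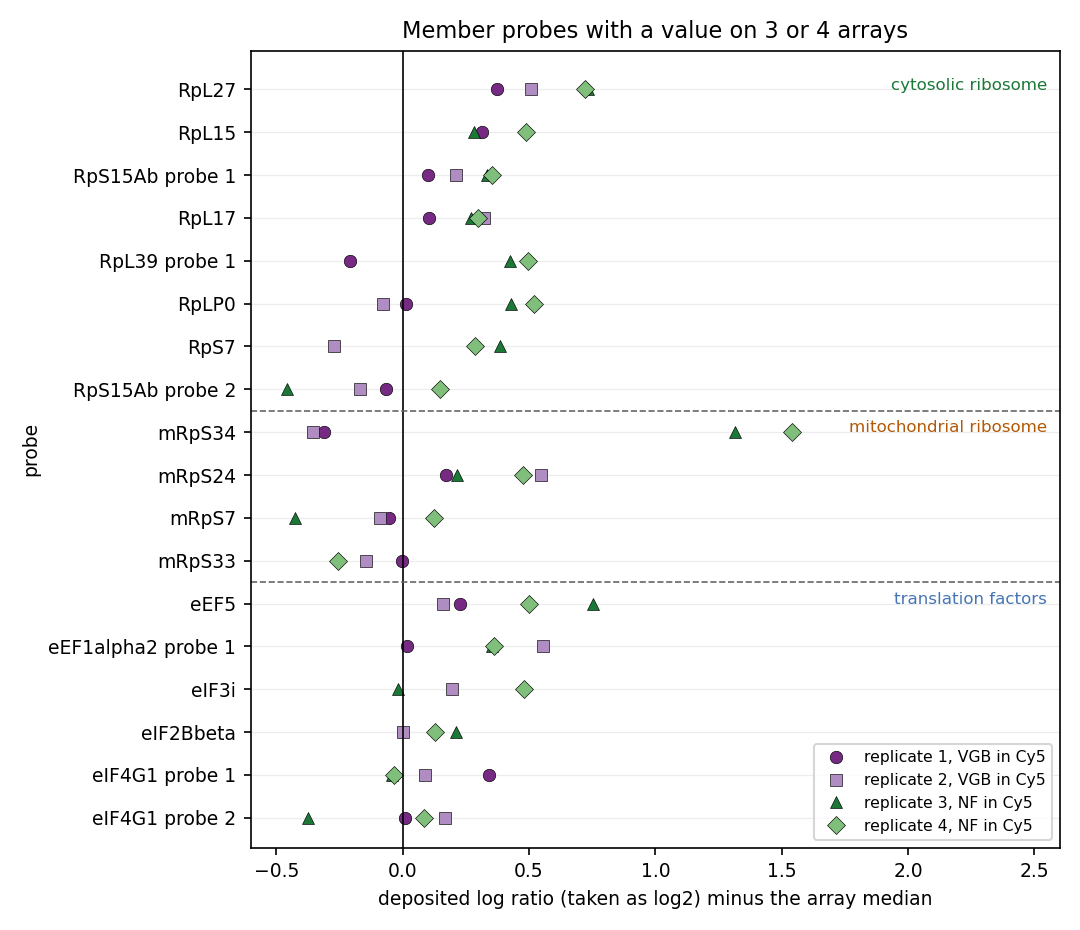
Each point is the deposited log ratio of a probe on 1 array minus the array median (x axis, taken as log2), with 1 row per member probe on 3 or 4 arrays and a symbol per array. RpL27 lies right of 0 on all 4 arrays, and mRpS34 lies between -0.35 and -0.31 where VGB was in Cy5 and between 1.31 and 1.54 where NF was in Cy5.

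Among the 5 cytosolic ribosome probes with values on 1 or 2 arrays, 3 had a mean above 0 and 2 below in each reading. They were not the same probes: RpL29 went from -0.48 in the main reading to 0.48 in the other, and RpS10a from 0.17 to -0.17. Of all 3924 probes on 1 or 2 arrays, 2188 had a mean above 0 and 1731 below in the main reading. In the other reading 1682 were above and 2237 below. RpL29 had centred ratios of 0.28 and 0.68 on replicates 3 and 4, and RpL23 had 0.46 on replicate 1. RpL24-like had 0.51 and 0.49 on replicates 2 and 4; its name follows a ribosomal protein, while its yeast relative is a factor of ribosome assembly. These 3 lay above the array median where measured. RpS10a had -0.17 on replicate 4. Such values have no test.

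The mitochondrial ribosome held the member with the widest split between the dye orders. mRpS34, a small-subunit protein found in animals, had centred ratios of -0.31 and -0.35 on replicates 1 and 2, and of 1.31 and 1.54 on replicates 3 and 4. It had the highest ratio of all 3231 probes on replicate 4 and rank 2 of 1517 on replicate 3, and stood at percentiles 16.9 and 17.7 on replicates 1 and 2. Arrays of 1 dye order differed by 0.04 and 0.23, so the value was close within each order and far apart between them. Turned to the main reading, it was lower with VGB on 4 of 4 arrays, at -0.88 ± 0.64 (SD, n = 4; limma adjusted p = 0.090), or 54.4% of the NF level, rank 3 from the lowest of 1114 means. Unturned, the arrays stood 2 on each side of 0, with a mean of 0.55 ± 1.02 (SD, n = 4; limma adjusted p = 0.38).

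Among the 14 alternatives, mRpS34 passed under 4, all in the main reading, where no other member passed for VGB. It was lower when arrays were centred on the probes with 4 values (-0.83, limma adjusted p = 0.0018), without replicate 2 (-1.05, limma adjusted p = 0.0012) and with a dye term over the 591 probes on all 4 arrays (-0.88, limma adjusted p = 0.00012). In the dye model 26 of 591 probes (4.40%) were lower and 1 (0.169%) higher. The dye term of mRpS34 passed too (0.55, limma adjusted p = 0.014), which in the other reading is higher with VGB. With single spots, 1 of its 2 spots passed (-0.95, limma adjusted p = 0.031) and the other did not (-0.80, limma adjusted p = 0.10). Its limma adjusted p ran from 0.00012 to 0.997 over the 14 alternatives, and was 0.99 without replicate 4.

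The other 3 tested mitochondrial ribosome genes, all of the small subunit, had means near 0 in the main reading. mRpS24 had 0.17, 0.55, 0.22 and 0.48 on replicates 1 to 4, above the median on every array, with means of 0.01 ± 0.45 and 0.35 ± 0.19 in the main and the other reading (SD, n = 4; limma adjusted p = 0.997 and 0.23). mRpS7 had -0.05, -0.09, -0.42 and 0.13, and means of 0.04 and -0.11. mRpS33 had -0.0040, -0.14 and -0.26 on replicates 1, 2 and 4, below the median on each, and means of 0.04 and -0.13. The 4 tested genes of this class thus showed different patterns over the arrays: high throughout (mRpS24), split by dye order (mRpS34) and mixed (mRpS7). mRpS33 was at the median on replicate 1 and below it on replicates 2 and 4.

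The other 16 measured mitochondrial ribosome probes had values on 1 or 2 arrays, with 6 means above 0 and 10 below in each reading. They were not the same probes. From the main reading to the other, mRpL15 and mRpL24 went from above 0 to below, and mRpL40 and mRpL44 from below to above. Of all 3924 probes on 1 or 2 arrays, 2188 had a mean above 0 and 1731 below in the main reading. In the other reading 1682 were above and 2237 below. The largest means among the 16 were those of mRpL48 (-2.30 on replicate 2), mRpL21 (1.13 on replicate 1), mRpS18B (-0.84 on replicate 1) and mRpL38 (-0.49 on replicate 1). The duplicate spots of the first 3 disagreed: they stood at -0.15 and -4.44 for mRpL48, at 2.40 and -0.13 for mRpL21, and at -0.17 and -1.52 for mRpS18B. In each of these pairs 1 spot lay near the median, so the size of the mean rests on the other. Among all measured members, 2 of 27 pairs on replicate 1 (7.41%), 1 of 21 on replicate 2 (4.76%), 2 of 25 on replicate 3 (8.0%) and 0 of 37 on replicate 4 had spots that differed by more than 1. Over all probes of the array the share was 8.58% on replicate 1 and 1.70% to 2.11% on the other arrays.

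Both tested elongation factor genes lay above the array median on all 4 arrays. eEF5, the fly gene for the factor eIF5A that carries the modified residue hypusine, had centred ratios of 0.23, 0.16, 0.75 and 0.50 on replicates 1 to 4. Replicates 3 and 4 were the higher. The means were -0.22 ± 0.49 in the main reading and 0.41 ± 0.27 in the other (SD, n = 4; limma adjusted p = 0.93 and 0.19). eEF1alpha2, a gene for the factor that brings aminoacyl-tRNA to the ribosome, had 0.02, 0.56, 0.36 and 0.36. On replicate 1 it was close to the median (percentile 52.5), and its means were -0.04 ± 0.43 and 0.32 ± 0.22 (SD, n = 4; limma adjusted p = 0.997 and 0.29). A close copy of this gene, eEF1alpha1, can bind the same spot.

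Of the initiation factors, 3 genes were tested. eIF4G1, the scaffold of the cap-binding complex, had 2 probes on all 4 arrays. Probe 1 had 0.34, 0.09, -0.04 and -0.03, which in the main reading is higher with VGB on 4 of 4 arrays, at 0.13 ± 0.15 (SD, n = 4; limma adjusted p = 0.99). Probe 2 had 0.01, 0.17, -0.37 and 0.08, with a mean of 0.12 ± 0.20 in that reading (SD, n = 4; limma adjusted p = 0.99). The means of the other reading were 0.09 and -0.03, so the probes kept a like mean in the main reading and fell on either side of 0 in the other. eIF2Bbeta, a subunit of the exchange factor that recharges eIF2 with GTP, had 0.0025, 0.21 and 0.13 on replicates 2, 3 and 4, and means of -0.11 and 0.11. eIF3i, a subunit of the scaffold complex eIF3, had 0.19, -0.02 and 0.48 on replicates 2, 3 and 4, and means of -0.09 and 0.22.

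Of 13 factor probes with values on 1 or 2 arrays, 5 had a mean above 0 and 8 below in the main reading, and 8 above and 5 below in the other. Of all 3924 probes on 1 or 2 arrays, 2188 were above 0 and 1731 below in the main reading, and 1682 and 2237 in the other. eIF4A, the RNA helicase that unwinds the start of the message, had 0.73 on replicate 3, and eIF3l had 0.56 on replicate 4. eIF4H2 had -1.57 and -0.23 on replicates 3 and 4, and eIF4E5, a gene of the cap-binding family, had -0.59 on replicate 3. The duplicate spots of eIF4H2 and eIF4E5 on replicate 3 differed by 1.21 and 1.00. Factors measured on 1 or 2 arrays therefore scattered on both sides of the median.

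The 3 classes were then compared by array. Over the tested probes, the median centred ratio of the cytosolic ribosome was 0.10, 0.07, 0.36 and 0.42 on replicates 1 to 4. That of the mitochondrial ribosome was -0.03, -0.12, 0.22 and 0.30, and that of factors 0.12, 0.16, 0.10 and 0.24. Over all 1114 tested probes the medians were -0.01, 0.06, 0.04 and 0.22, so well measured probes as a whole lay above the array median on replicate 4. The cytosolic ribosome lay above all tested probes on replicates 1, 3 and 4, by most on replicate 3. On replicate 2 it was level with them (0.066 against 0.063), with 3 of 6 probes above 0. Factors lay above all tested probes on all 4 arrays, by least on replicate 4 (0.24 against 0.22). The mitochondrial ribosome did so on replicates 3 and 4 alone. That last value rests on 4 tested probes: over all 10 mitochondrial ribosome probes measured on replicate 4 the median was -0.13, with 3 above 0 and 7 below. With 4 to 8 probes a class and with ratios that share the arrays, these medians are a description and no test was made.

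**Figure D3:**
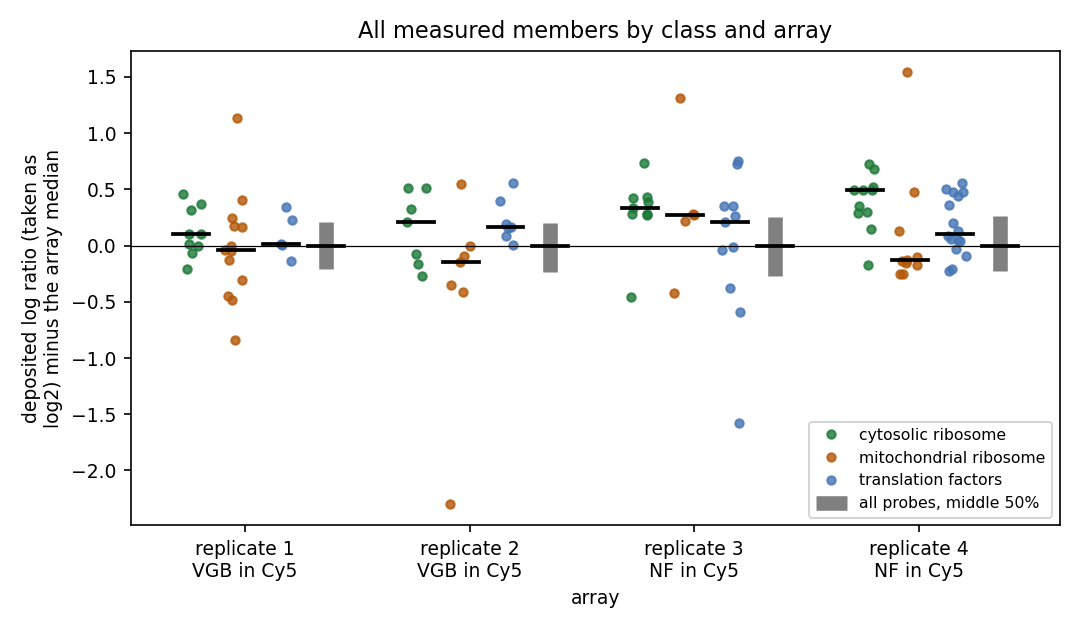
Points are all measured members, on 1 or more arrays, by class and array (y axis, deposited log ratio taken as log2 minus the array median); black lines are medians and the grey bar holds the middle 50% of all probes. Of cytosolic ribosome probes, 8 of 9 lie above 0 on replicate 3 and 10 of 11 on replicate 4, against 6 of 9 and 4 of 7 on replicates 1 and 2.

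Read as VGB over NF, the median of the probe means changed sign with the reading for the cytosolic ribosome and for factors. For the mitochondrial ribosome it did not, but the mean of its 4 array medians did. That mean was -0.17 in the main reading, with all 4 array medians below 0 (-0.03, -0.12, -0.22 and -0.30), and 0.09 in the other. The median of the probe means in the main reading was -0.15 for the cytosolic ribosome (7 of 8 below 0), 0.02 for the mitochondrial ribosome (1 of 4 below 0) and -0.06 for factors (4 of 6 below 0). Over all tested probes it was -0.04, with 61.0% below 0. In the other reading the medians were 0.24 (7 of 8 above 0), 0.12 (2 of 4) and 0.17 (5 of 6), against 0.07 with 64.0% above 0 for all tested probes. Without replicate 4 the main reading gave 0.0046 for the cytosolic ribosome and 0.09 for factors, against 0.012 for all tested probes.

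**Figure D4:**
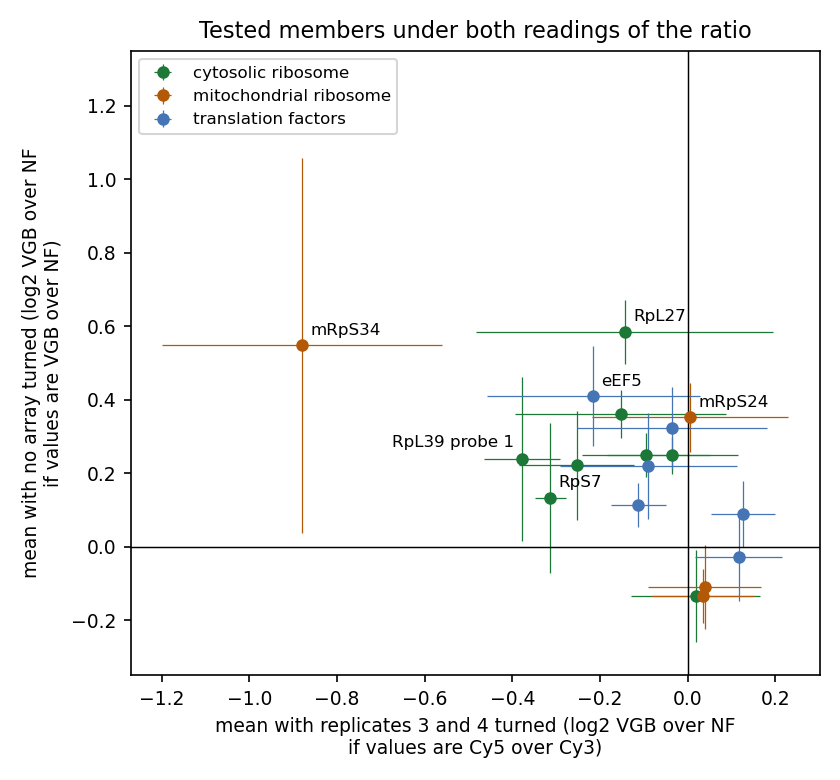
Each point is a tested member, with its mean when replicates 3 and 4 are turned (x axis) and when no array is turned (y axis), both on the log2 scale; bars are standard errors over 3 or 4 arrays. Most members lie left of 0 and above 0, that is, lower with VGB in the main reading and higher with VGB in the other.

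Agreement in sign over the arrays also depended on the reading. In the other reading 8 of 18 members (44.4%) were above 0 on every array measured, against 19.9% of all tested probes: RpL15, RpL17, RpL27, RpS15Ab probe 1, eEF1alpha2, eEF5, eIF2Bbeta and mRpS24. There 1 member (5.56%), mRpS33, was below 0 on every array measured, against 8.35%. Both eIF2Bbeta (0.0025 on replicate 2) and mRpS33 (-0.0040 on replicate 1) had 1 value next to 0. In the main reading 3 members (16.7%), RpL39, RpS7 and mRpS34, were below 0 on every array measured, against 13.7% of all tested probes, and 1 (5.56%), eIF4G1 probe 1, was above, against 5.48%. The shares of the main reading were thus close to those of all tested probes. Without turning, the share above 0 was larger among the members. Members of 1 ribosome share arrays and pools and are not independent of each other.

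A limma model with a VGB term and a dye term was fitted over the 591 probes on all 4 arrays, 12 of them members. Read the main way, 38 probes (6.43%) had a dye term toward Cy5 past the threshold, among them RpL27 (0.58), mRpS34 (0.55) and eEF5 (0.41; limma adjusted p = 0.014, 0.014 and 0.036). For the other reading the dye and VGB terms change places, so there these 3 members were higher with VGB past the threshold of this model. In that reading RpL27 and eEF5 were above 0 on 4 of 4 arrays. mRpS34 had 2 arrays on each side of 0, and its mean did not pass without a dye term (limma adjusted p = 0.38). Whether the dye or the diet moved RpL27 and eEF5 cannot be told apart while the direction of the ratio is unknown.

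Other genes of translation were sparser still. Of 99 genes listed for the TOR pathway and cap-binding control, other cytosolic translation, aminoacyl-tRNA synthetases, ribosome assembly and mitochondrial translation, 44 were found on the array by name, 22 had a value and 3 were tested. None of their 5 probes passed limma in either reading (lowest adjusted p in the main reading 0.95). The poly(A)-binding protein gene pAbp had centred ratios of -0.19, 0.15, -0.16 and 0.46 on replicates 1 to 4, on both sides of the median in each dye order. S6k, the kinase of ribosomal protein S6 downstream of TOR, had 0.09, -0.0030, -0.11 and 0.30, and means of -0.03 and 0.07 in the main and the other reading. Dp1, an RNA-binding protein gene, had 0.35, 0.71 and 0.34 on replicates 1, 2 and 4 for one probe and 0.15, 0.33 and 0.58 for another, all above the median. Of aminoacyl-tRNA synthetases, ribosome assembly genes and mitochondrial translation genes, 6, 5 and 1 had a value and 0 were tested.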

How the data were processed

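The authors quantified the scanned arrays with GenePix Pro 6.0 and normalized the ratio with Acuity 4.0, per the labels and the series' design text. Spots stayed in their tables where fewer than 3% of pixels were saturated, no flag marked them as bad or absent, the region R2 reached 0.6 and the signal-to-noise ratio reached 3. The values they deposited are log ratios, assumed to be log2, and their direction on the dye-swapped arrays is not stated. Spot intensities were not used here, so the number of arrays limits the precision.

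Adjacent duplicate spots were averaged, gene symbols of the platform annotation were matched by Entrez identifier to a table of Release 6 genes (all 122 members matched) and the median of each array was subtracted. The test was limma 3.58.1 in R 4.3.3 (lmFit and eBayes), tested on simulated data. Dye swaps entered through the sign. Alternatives covered the reading, centring, filter, spots, gene level, dye and each replicate. Members tested on at least 3 arrays were all named, with up to 4 a class of those on 1 or 2 arrays (largest absolute mean in the main reading) and up to 3 genes of each list of other translation genes. Members, lists and settings were chosen with earlier results of these data known. Promoter and protein sequences were not used here. Each array is 1 separate pair of pools, so the 4 values of a probe are biological replicates.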

Additional observations from a re-analysis of the deposited data

Results flagged for a closer look

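Among 12 members on all 4 arrays and 3 class medians, looked at in the main reading, 3 members had 1 array far from the other 3; chance marks about 1 in 20 such groups. RpS15Ab probe 2 stood at 0.46 on replicate 3, against -0.17 to -0.06 on the other arrays. mRpS7 stood at 0.43 on replicate 3, against -0.13 to -0.05. eIF4G1 probe 1 stood at 0.34 on replicate 1, against 0.03 to 0.09, and was just past the limit. Without replicate 3 the means of RpS15Ab probe 2 and mRpS7 were -0.13 and -0.09. Turning changes the sign of replicates 3 and 4, so these flags belong to the main reading. The check was not run in the other reading. There RpS15Ab probe 2 had -0.06, -0.17, -0.46 and 0.15 on replicates 1 to 4. On the same arrays mRpS7 had -0.05, -0.09, -0.42 and 0.13, and eIF4G1 probe 1 had 0.34, 0.09, -0.04 and -0.03.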

How the results depend on the processing

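Directions depend on the reading of the ratio first. All other settings below were run in the main reading. In the other reading 16 of 18 member means changed sign: RpL15 0.36, RpL17 0.25, RpL27 0.58, RpL39 0.24, RpLP0 0.22, RpS15Ab 0.25 and -0.13 (probes 1 and 2), RpS7 0.13, eEF1alpha2 0.32, eEF5 0.41, eIF2Bbeta 0.11, eIF3i 0.22, eIF4G1 probe 2 -0.028, mRpS33 -0.13, mRpS34 0.55 and mRpS7 -0.11. The class medians were 0.24 (cytosolic ribosome) and 0.17 (factors), and 0 probes were called higher and 0 lower. As deposited, with no centring, 0 and 0 were called, the median of all tested probes was 0.20 against -0.04 when centred, the cytosolic ribosome median turned to 0.081, the mitochondrial ribosome and factor medians were 0.30 and 0.15, and RpL17 (0.25), RpL27 (0.14), RpLP0 (0.026), RpS15Ab probe 1 (0.19), eEF1alpha2 (0.24) and eEF5 (0.064) changed sign. Centred on the 4-array probes, 5 and 5 probes were called, 1 of them a member (lower), with RpL17 at 0.019 and eEF1alpha2 at 0.018. Block centring called 0 and 1 (mRpS33 at -0.016), quantile normalization 0 and 0 (RpS15Ab probe 2 at -0.013, eEF1alpha2 at 0.028), a minimum of 2 arrays 0 and 0, all 4 arrays 0 higher, single spots 2 and 7 with 1 member spot lower, and the dye term 26 lower with 1 member. The factor median turned to 0.040 with all 4 arrays or the dye term, and the mitochondrial ribosome median to -0.033 with a minimum of 2 arrays.

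Leaving out 1 array gave 0 to 6 probes higher and 0 to 17 lower, the extremes being replicate 4 and replicate 2, and 0 to 1 members lower. The cytosolic ribosome, mitochondrial ribosome and factor medians ran from -0.31 to 0.0046, -0.05 to 0.01 and -0.20 to 0.09. That of all tested probes ran from -0.083 without replicate 2 to 0.012 without replicate 4. Member means that changed sign ran from -0.39 to 0.017 (RpL15), -0.15 to 0.053 (RpL17), -0.36 to 0.054 (RpL27), -0.13 to 0.080 (RpS15Ab probe 2), -0.23 to 0.073 (eEF1alpha2), -0.23 to 0.11 (eIF3i), -0.17 to 0.17 (mRpS24), -0.074 to 0.13 (mRpS33) and -0.089 to 0.095 (mRpS7). The cause of these changes was not tested. No separate paired analysis was run, because each ratio already compares the 2 pools of 1 pair on 1 array. The filters left 18 of 122 members with enough arrays for a test, which limits what can be said of the classes.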

Other observations

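Across members with values on both arrays, which are not independent replicates, centred ratios correlated with Pearson r = 0.65 between replicates 1 and 2 (13 probes) and 0.72 between replicates 3 and 4 (23 probes), against 0.24 (826 probes) and 0.47 (1177 probes) over all probes. Between arrays of opposite dye order r ran from -0.27 to 0.10 (14 to 18 probes). One gene weighed heavily on several of these values. Over the 12 members on all 4 arrays, r between opposite dye orders ran from -0.42 to 0.02, and without mRpS34, left out after its values were seen, from 0.34 to 0.60 over 11 probes. Without it, r between replicates 1 and 2 was 0.46, against 0.65 with it. Over all 591 probes on 4 arrays the same pairs had r from -0.02 to 0.09. All these ratios share the arrays and their spot filters.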
